A study of Mus musculus with 6 samples.

Results

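Immediate early genes of T cell receptor (TCR) signalling were described in Tregs of WT mice and of mice with Zfp335 deleted in Tregs (KO). The 10 genes were Nr4a1, Nr4a2, Nr4a3, Egr1, Egr2, Egr3, Fos, Fosb, Jun and Npas4, and all 10 were found by symbol among the 13709 genes of the counts table. They were chosen as signal-induced transcription factors with their KO against WT values in these same samples already known. Their differences between KO and WT are therefore given as a description, with the standard error (SE) of the fit and with no test.

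The data were RNA-Seq counts of 6 samples, 3 WT and 3 KO, of Tregs sorted from C57BL/6 mice as CD4+, YFP+ and CD25+. WT mice were Foxp3Cre and KO mice were Foxp3Cre Zfp335 fl/fl, so both genotypes carried the Cre and YFP alleles, and the labels describe the WT mice as littermates. Cre made from the Foxp3 gene acts in cells that express Foxp3, and the mice were 2 weeks old according to the methods. The paper reports early autoimmune inflammation in KO mice. It describes the lost Treg signature of KO Tregs as secondary to that inflammation and not intrinsic. The part of inflammation in the levels described here was not tested. The labels give both lymph nodes and spleen as the tissue, and whether a sample was 1 mouse or a pool was not stated in the sources used here, so the spread between samples may be partly technical.

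Immediate early genes are transcribed within minutes of a signal, before new protein has to be made, because their activators, such as SRF with its ETS partners, CREB, MEF2 and NFAT, are already in the cell. In T cells the TCR turns them on through calcium and MAP kinase signals. Nr4a1, Nr4a2 and Nr4a3 encode orphan nuclear receptors, Egr1, Egr2 and Egr3 encode zinc finger factors, Fos and Fosb pair with Jun to form AP-1, and Npas4 encodes a bHLH-PAS factor best known as a calcium-dependent gene of neurons.

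Promoter sequence was available for 8 of the 10 genes in the RefSeq table of GRCm38.p6 (mm10), and not for Egr1 and Egr3. Each window was 300 bases long and ran across an annotated start site, with most of it upstream. The motif TGACG, the core of the site bound by CREB and ATF factors, was present on either strand in 7 of these 8 genes, against 23.0% of all 27025 genes in the table. Jun was the gene without it. The serum response element known as the CArG box was found in 1 of the 8, Egr2, against 1.81% of genes. TATAAA was found in 2, Nr4a2 and Fos, against 15.7%. The motif GCGNGGGCG, to which EGR proteins bind, was found in 3, Nr4a1, Nr4a2 and Fosb, against 6.27%. The palindrome TGACGTCA, which contains TGACG, was in 0 of the 8 (2.03% of genes), as were the AP-1 site TGACTCA (5.95%) and the NR4A site AAAGGTCA (1.70%). These matches describe the letters in the windows, were not tested, and say nothing of whether a factor was bound. Sites outside these short windows were not searched, so a gene without a match may hold one further away.

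The 4 windows below are shown because these genes stand for the patterns described next, Npas4 and Egr2 for low levels in KO Tregs and Fos and Nr4a1 for high levels in a single WT sample. Capitals mark TGACG or its complement CGTCA, the CArG box and TATAAA, and each window reads 5′ to 3′ on the strand of its gene. Egr2 had 5 windows in the table, for different start sites, of which 3 overlapping ones held TGACG and 2 did not, and the first of the 3 is shown because it holds the motifs. The positions are chr19:4989922-4990221 (minus strand) for Npas4, chr10:67537619-67537918 (plus strand) for Egr2, chr12:85473640-85473939 (plus strand) for Fos and chr15:101266596-101266895 (plus strand) for Nr4a1.
Npas4: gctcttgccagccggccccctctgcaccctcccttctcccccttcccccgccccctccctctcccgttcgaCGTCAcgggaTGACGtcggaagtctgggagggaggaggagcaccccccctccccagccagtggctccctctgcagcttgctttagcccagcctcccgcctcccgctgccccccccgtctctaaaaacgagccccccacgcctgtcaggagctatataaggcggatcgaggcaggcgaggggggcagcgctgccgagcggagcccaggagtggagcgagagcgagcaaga
Egr2: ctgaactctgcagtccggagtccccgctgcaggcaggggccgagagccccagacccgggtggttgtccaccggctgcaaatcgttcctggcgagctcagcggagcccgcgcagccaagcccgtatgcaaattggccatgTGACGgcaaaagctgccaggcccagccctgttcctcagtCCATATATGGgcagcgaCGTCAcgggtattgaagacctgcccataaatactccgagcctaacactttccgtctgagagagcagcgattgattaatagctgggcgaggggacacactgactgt
Fos: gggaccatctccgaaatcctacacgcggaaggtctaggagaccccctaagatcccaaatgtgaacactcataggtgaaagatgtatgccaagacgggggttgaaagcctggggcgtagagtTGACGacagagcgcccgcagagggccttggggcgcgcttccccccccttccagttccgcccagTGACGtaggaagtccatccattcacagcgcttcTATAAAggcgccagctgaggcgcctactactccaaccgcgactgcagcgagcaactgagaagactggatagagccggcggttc
Nr4a1: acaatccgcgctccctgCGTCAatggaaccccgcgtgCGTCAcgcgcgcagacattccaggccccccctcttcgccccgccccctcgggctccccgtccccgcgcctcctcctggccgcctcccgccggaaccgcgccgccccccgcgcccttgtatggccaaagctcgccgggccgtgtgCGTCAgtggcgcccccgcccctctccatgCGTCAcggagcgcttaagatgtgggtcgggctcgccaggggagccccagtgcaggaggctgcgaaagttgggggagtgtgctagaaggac
The Npas4 window held 2 copies of TGACG, 1 on each strand and close together. The Egr2 window held 2 with a CArG box between them, the Fos window held 2 ahead of a TATAAA, and the Nr4a1 window held 4.

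The genes were short, as annotated in GENCODE M21. Their median span was 6338 bp, against 23718.5 bp for the 12938 tested genes with a protein-coding transcript there, and 6 of the 10 had 4 exons or fewer, against 21.9% of those genes. Jun is a single exon at chr4:95049034-95052222 on the minus strand, and the antisense gene Junos overlaps it on the plus strand. Since the sources used here do not say whether counting used strand, counts of Jun may include Junos. Fos lies at chr12:85473890-85477273, Egr2 at chr10:67535475-67542188, Egr3 at chr14:70077203-70082614 and Npas4 at chr19:4984355-4990316. Nr4a3 is the longest of the 10, with 8 exons at chr4:48045153-48086447.

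Samples held 32032631 to 40728419 counts, and 13594 of the 13709 genes passed the filter on low counts, all 10 immediate early genes among them. At these depths 3 counts, the least told from 0, came to 0.0747 to 0.0913 CPM (counts scaled by the library total times its TMM factor), which covers counting error only. Zfp335, the targeted gene, was at 101, 94.3 and 103 CPM in WT replicates 1 to 3 and at 37.0, 37.9 and 40.2 CPM in KO replicates 1 to 3. WT replicate 3 stood apart from the other WT samples. Its squared count differences from theirs had medians over genes of 25.8 and 26.3 times that expected from sampling noise. This squared measure was 10.1 times between WT replicates 1 and 2 and 5.27 to 6.07 times between KO samples. Between genotypes it was 46.2 to 53.0 times. The 10 genes and the counts of calls in each list are given with and without WT replicate 3. Other genes are given without that replicate where leaving it out changed a call or moved a printed fold by more than 1.5 times. The heat shock genes not called with all samples are an exception and are given with all samples only.

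Markers of T cells and Tregs (Cd3e, Cd4, Foxp3, Il2ra and Ikzf2) were present in every sample, summing to 3418 to 4184 CPM in WT and 2832 to 2900 CPM in KO. By the rule for calls given below, 12.5% of all genes tested were called lower in KO and 11.9% higher. Without WT replicate 3 these shares were 13.2% and 13.6%. Of the 5 T cell and Treg markers, Foxp3 and Ikzf2 were called lower in KO. Without WT replicate 3 only Ikzf2 was called lower, with Foxp3 lost (-0.57). Ikzf2, which encodes the Treg factor Helios, was at 709, 757 and 647 CPM in WT and 324, 338 and 317 CPM in KO, a log2 fold change of -1.11 (SE 0.08). Markers of other cells were low. The 6 myeloid markers measured summed to 22.2 to 28.7 CPM in WT and 52.3 to 59.3 CPM in KO, and 4 of them were called higher in KO (Lyz2, Csf1r, Itgam and Adgre1). The call of Lyz2 (log2 fold change 0.92) was lost without WT replicate 1 (1.10), WT replicate 3 (0.55), KO replicate 1 (0.88), KO replicate 2 (0.95) or KO replicate 3 (0.93), and that of Adgre1 (2.09) without KO replicate 1 (1.77) or KO replicate 3 (1.999). The sums for 4 dendritic cell markers were 0.751 to 1.96 CPM in WT and 6.95 to 10.4 CPM in KO (1 called higher, Itgax), those for 4 CD8 T and NK cell markers were 11.1 to 15.8 and 15.4 to 17.6 CPM (Cd8a and Klrb1c called higher), and those for 5 B cell markers were 17.99 to 20.1 and 12.1 to 12.6 CPM (1 called lower, Cd79b). The calls of Cd8a (0.997) and Klrb1c (1.081) were each lost in several fits with a sample left out, namely without WT replicate 2 (0.70 and 0.94) or KO replicate 3 (0.91 and 1.06) for both, without KO replicate 1 for Cd8a (0.92) and without WT replicate 1 (0.88) or KO replicate 2 (0.89) for Klrb1c. Without WT replicate 3 the counts of calls for these other cells were the same, with another myeloid marker called higher in place of Lyz2. The part of such cells in the levels of the immediate early genes was not tested. In bulk samples, fewer cells making a gene and less RNA of it per cell cannot be told apart.

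The 10 genes fell into 3 patterns. Npas4, Egr2, Egr3, Nr4a3 and, by a smaller amount, Egr1 were lower in every KO sample than in every WT sample, and WT replicate 3 was near or below the other WT samples. Fos, Fosb, Nr4a1 and Nr4a2 were far higher in WT replicate 3 than in any other sample. Among the remaining samples these 4 genes differed less. Even so, every KO value of Fos and, narrowly, of Fosb was below those of WT replicates 1 and 2. Every KO value of Nr4a2 was above them. Jun was high in WT replicate 3 and also higher in all 3 KO samples than in WT replicates 1 and 2. A gene was called where edgeR gave a fold change over 1.5, p under 0.05 and adjusted p under 0.1, the cutoffs of the study. By this rule 5 of the 10 were called lower in KO (Npas4, Egr2, Egr3, Nr4a3 and Fos), against 12.5% of all genes tested, and 0 of 10 were called higher, against 11.9%. None had p under 0.05 in the higher direction before adjustment (0 of 10), and DESeq2 called 0 higher. Since the genes were chosen on this contrast, nothing is read from these counts. In 7 of the 10 every KO value was below every WT value (27.6% of genes tested), and 0 had every KO value above (26.2%). Without WT replicate 3, 4 were called lower (13.2% of genes), with Fos lost, and 1 higher, Jun (13.6%).

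**Figure D1:**
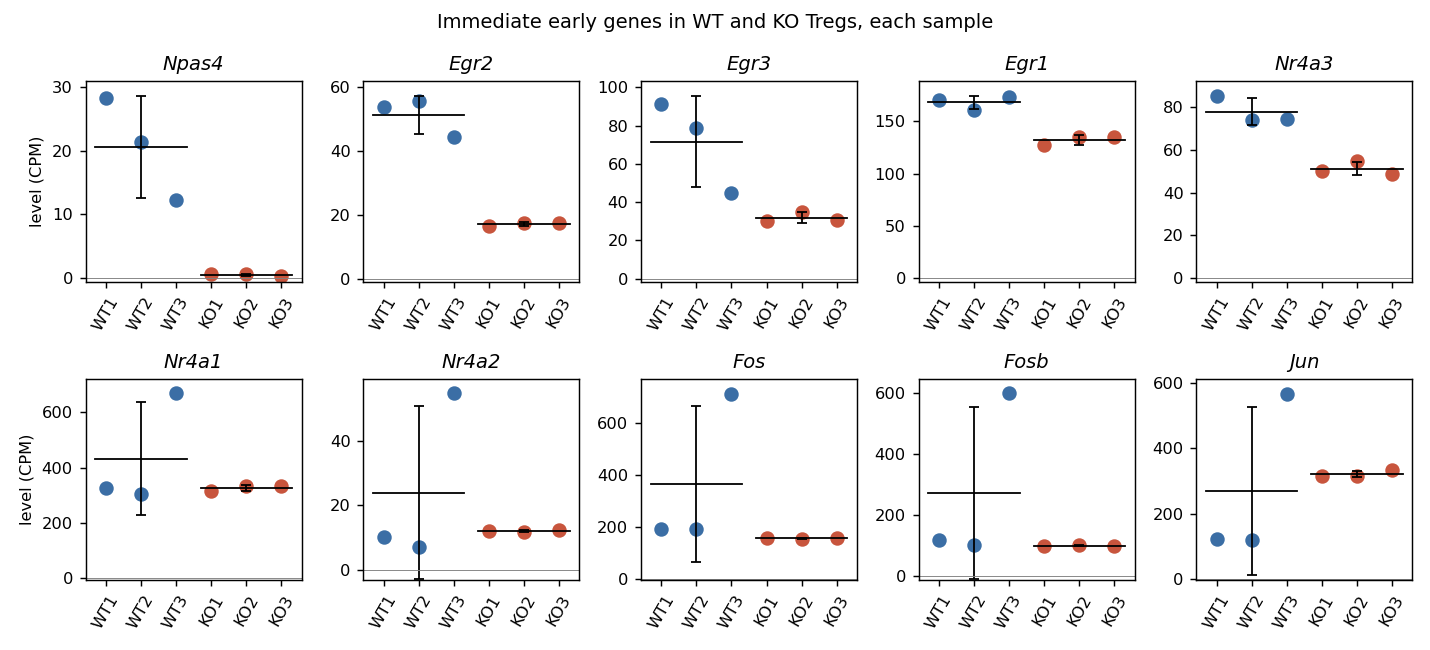
Level of each immediate early gene in CPM (vertical axis, 1 panel per gene with its own scale from 0 or just below) in WT replicates 1 to 3 (blue) and KO replicates 1 to 3 (red). Black lines are genotype means with SD bars (n = 3). In the upper row the KO points lie below all WT points, while in the lower row WT3 lies far above the other samples.

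Npas4 differed most of the 10. It was at 28.2, 21.4 and 12.3 CPM in WT replicates 1 to 3, from 1037, 703 and 409 counts, and at 0.630, 0.697 and 0.425 CPM in KO replicates 1 to 3, from 23, 28 and 15 counts. The lowest WT sample was thus far above the highest KO sample, and the KO counts, although few, were above the 3 counts told from 0. The KO mean was 2.83% of the WT mean (0.584 ± 0.141 against 20.6 ± 7.97 CPM, SD, n = 3 each), with a log2 fold change of -5.13 (SE 0.37), and -5.39 (SE 0.21) without WT replicate 3. Within WT, Npas4 was lowest in replicate 3, at 0.496 times the mean of the other WT samples.

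Egr2 and Egr3, which restrain T cell activation and take part in anergy, followed. Egr2 was at 53.8, 55.8 and 44.5 CPM in the WT samples and at 16.5, 17.3 and 17.6 CPM in the KO samples. The groups were far apart, with KO at 33.3% of WT and a log2 fold change of -1.59 (SE 0.11), or -1.68 (SE 0.08) without WT replicate 3. Egr3 was at 91.2, 78.7 and 44.8 CPM in WT and at 29.9, 35.0 and 30.4 CPM in KO. Its WT values were spread more widely, and replicate 3 was again the lowest of them, though still above every KO value. The log2 fold change of Egr3 was -1.17 (SE 0.24), and -1.42 (SE 0.09) without WT replicate 3.

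Egr1, the family member most widely induced by growth signals, differed less. It was at 170, 161 and 173 CPM in WT and at 127, 135 and 135 CPM in KO. The groups did not overlap and replicates lay close together, with KO at 78.7% of WT and a log2 fold change of -0.35 (SE 0.06), or -0.33 (SE 0.06) without WT replicate 3. Egr1 was not called because the difference was under 1.5-fold. Within each sample the counts of Egr2 relative to Egr1 were 0.317, 0.346 and 0.257 in WT and 0.130, 0.128 and 0.130 in KO. This ratio separated the genotypes with WT replicate 3 included. Compared per kb of transcript, Egr1 made up 47.6%, 47.9% and 59.3% of the summed levels of Egr1 to Egr4 in WT and 68.1%, 66.8% and 68.6% in KO. The share of Egr2 was 22.8%, 25.1% and 23.0% in WT and 13.4%, 13.0% and 13.5% in KO. That of Egr3 was 29.1%, 26.6% and 17.5% in WT and 18.2%, 19.7% and 17.6% in KO. By the share of Egr3, WT replicate 3 was thus not on the side of the other WT samples. Egr4, which is no member of the set, was at 0.330 to 0.788 CPM in WT and 0.328 to 0.498 CPM in KO and was not called (log2 fold change -0.55, SE 0.51).

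Nr4a3 was the only member of its family called lower in KO, and the only one with every KO value below every WT value. It was at 85.3, 74.1 and 74.1 CPM in WT and at 50.1, 54.8 and 48.8 CPM in KO. The groups did not overlap, KO stood at 65.8% of WT, and the log2 fold change was -0.60 (SE 0.09) with all samples and -0.64 (SE 0.08) without WT replicate 3. This lies just past the 1.5-fold cutoff of 0.58 on the log2 scale, and the call was lost without WT replicate 1 (-0.53) and without KO replicate 3 (-0.57).

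Nr4a1, often used as a reporter of TCR signal strength, was at 325, 303 and 669 CPM in WT and at 315, 332 and 333 CPM in KO. WT replicate 3 was the only sample that departed from a level near 300 CPM, and the groups overlapped. The log2 fold change was -0.40 (SE 0.28) with all samples and 0.05 (SE 0.05) without WT replicate 3. Nr4a2 was at 10.02, 6.97 and 54.7 CPM in WT and at 11.9, 11.6 and 12.2 CPM in KO. WT replicate 3 was at 6.44 times the mean of the other WT samples, and its removal turned the log2 fold change from -1.01 (SE 0.69) to 0.48 (SE 0.16), neither of which was called. Nr4a1 made up 87.8% to 91.6% of the family's summed level per kb in every sample.

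Fos and Fosb, the Fos family genes of AP-1, had the same outlying sample. Fos was at 191, 191 and 712 CPM in WT and at 156, 152 and 158 CPM in KO. All KO values were below all WT values, but most of the difference in means came from WT replicate 3. The log2 fold change was -1.23 (SE 0.48) and called with all samples, and -0.31 (SE 0.05) and not called without WT replicate 3. The call was also lost when KO replicate 1 (-1.24), KO replicate 2 (-1.22) or KO replicate 3 (-1.24) was left out. Fosb was at 117, 103 and 597 CPM in WT and at 97.4, 101 and 99.96 CPM in KO. The groups did not overlap, but WT replicate 2 exceeded the highest KO sample by less than the difference between WT replicates 1 and 2. The log2 fold change of Fosb was -1.45 (SE 0.62) with all samples and -0.15 (SE 0.07) without WT replicate 3, neither called. It was called without WT replicate 1 (-1.82) or WT replicate 2 (-1.85), each of which leaves WT replicate 3 with a greater share of the WT mean.

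Jun, the partner of Fos proteins in AP-1, was at 122, 118 and 567 CPM in WT and at 315, 316 and 333 CPM in KO. The KO samples thus lay between WT replicates 1 and 2 on one side and WT replicate 3 on the other. The log2 fold change was 0.26 (SE 0.56) with all samples and was not called. Without WT replicate 3 it was 1.42 (SE 0.06) and called higher, the KO mean being 2.68 times the mean of WT replicates 1 and 2. Without WT replicate 1 it was -0.09 and without WT replicate 2 it was -0.10, neither called.

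**Figure D2:**
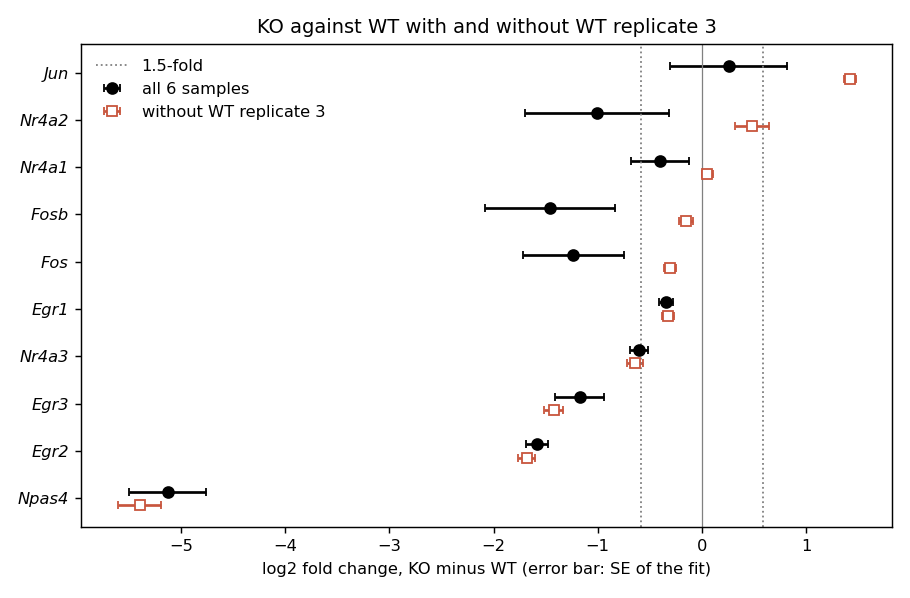
Log2 fold change of KO against WT (horizontal axis, below 0 is lower in KO) for the 10 genes, fitted on all 6 samples (filled circles) and without WT replicate 3 (open squares), with SE bars and dotted lines at 1.5-fold. Both fits lie close together for Npas4, Egr2, Egr3, Nr4a3 and Egr1, whereas for Fos, Fosb, Nr4a1, Nr4a2 and Jun they lie apart.

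Ratios of counts within a sample do not depend on library scaling, and those shown here were chosen after the values had been seen. The ratio of Jun to Fos was 0.637, 0.618 and 0.796 in WT replicates 1 to 3 and 2.02, 2.08 and 2.11 in KO replicates 1 to 3. WT replicate 3, with high levels of both genes, was on the WT side by this measure. The ratio of Fosl2, another Fos family gene, to Fos was 0.0450, 0.0364 and 0.0368 in WT and 0.260, 0.268 and 0.234 in KO. Again WT replicate 3 lay with the other WT samples. In other ratios it did not. The ratio of Egr3 to Egr1 was 0.536, 0.489 and 0.259 in WT and 0.235, 0.260 and 0.225 in KO. For Nr4a3 to Nr4a1 it was 0.262, 0.244 and 0.111 in WT and 0.159, 0.165 and 0.147 in KO. For Nr4a2 to Nr4a1 it was 0.0308, 0.0230 and 0.0819 in WT and 0.0378, 0.0348 and 0.0366 in KO. Fosl2 itself was at 8.58, 6.97 and 26.2 CPM in WT and 40.4, 40.7 and 36.9 CPM in KO and rose with a log2 fold change of 1.5004 (SE 0.45, edgeR adjusted p = 0.0317), or 2.33 without WT replicate 3. Its share of the summed level per kb of the Fos family went from 0.801% to 1.07% in WT samples to 5.26% to 5.92% in KO samples. Jun made up 6.37%, 6.07% and 11.7% of the Jun family in WT and 16.2%, 15.0% and 14.7% in KO.

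**Figure D3:**
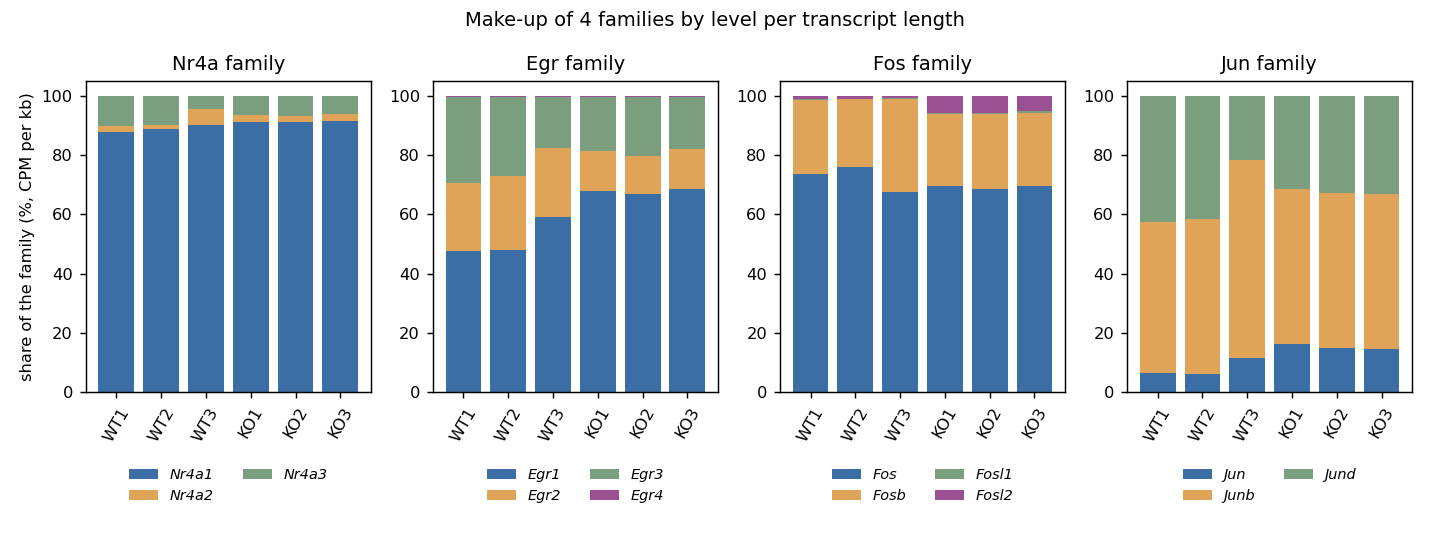
Share of each gene in the summed level of its family, in percent of CPM per kb of transcript (vertical axis, stacked to 100%), in each WT and KO sample. KO bars hold more Egr1 and less Egr2 in the Egr family, more Fosl2 in the Fos family and more Jun in the Jun family than every WT bar.

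The rest of the Jun family was not called. Junb was at 555, 579 and 1835 CPM in WT and 580, 621 and 675 CPM in KO, with WT replicate 3 high as for Fos (log2 fold change -0.66, SE 0.43, and 0.14 without that replicate). Jund, the least signal-dependent Jun gene, was at 424, 425 and 553 CPM in WT and 318, 361 and 391 CPM in KO, a log2 fold change of -0.39 (SE 0.13, edgeR adjusted p = 0.0424), which like that of Egr1 missed the rule by its size alone. Fosl1 was at 0.274 to 1.02 CPM in WT and 0.448 to 0.709 CPM in KO, a log2 fold change of -0.05 (SE 0.60), or 0.71 without WT replicate 3. Among the 11 other AP-1 and CREB/ATF-like partners measured, 2 rose and 0 fell, with a median log2 fold change of 0.51 against -0.04 for all genes tested, of which 11.9% rose and 12.5% fell. Without WT replicate 3, 5 of the 11 were called higher and 0 lower, against 13.6% and 13.2% of all genes. Besides Fosl2 the gene that rose was Batf2, at 0 counts in all 3 WT samples and 55, 53 and 31 counts in KO, at least 13.5-fold higher in mean CPM than the floor of 3 counts per library.

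Compared per kb of transcript, Nr4a1 was the highest of the 10 in KO samples, with a mean of 128 CPM per kb, followed by Jun at 101, Fos at 73.6, Egr1 at 29.5, Fosb at 26.3, Nr4a3 at 8.96, Egr3 at 8.06, Egr2 at 5.77, Nr4a2 at 3.34 and Npas4 at 0.161. In this order only Nr4a3 and Egr3 overlapped over the KO samples (8.53 to 9.58 and 7.58 to 8.88 CPM per kb). In WT replicates 1 and 2 the mean was 123 for Nr4a1, 90.7 for Fos, 37.6 for Jun, 36.9 for Egr1, 29.1 for Fosb, 21.6 for Egr3, 18.5 for Egr2, 13.9 for Nr4a3, 6.84 for Npas4 and 2.38 for Nr4a2. There Jun and Egr1 overlapped. Jun stood above Fos in KO and below it in every WT sample, and Npas4 stood above Nr4a2 in WT replicates 1 and 2 and below it in the other samples. In WT replicate 3 Fos was the highest, at 338 CPM per kb, ahead of Nr4a1 at 262.

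The spread between samples was wider within WT than within KO. In WT replicate 3, 5 of the 10 genes (Nr4a1, Nr4a2, Fos, Fosb and Jun) were more than 2 times the mean of the other WT samples, against 2.97% of the 10125 genes whose mean reached 5 CPM in a genotype. The ratio was 2.13 for Nr4a1, 3.72 for Fos, 4.73 for Jun, 5.42 for Fosb and 6.44 for Nr4a2. At the other end it was 0.528 for Egr3 and 0.496 for Npas4, lower than for all but 3.13% and 2.53% of those genes. The 10 genes thus stood on both sides of the other WT samples in that sample. Within WT the coefficient of variation of the 10 genes ran from 3.73% to 112% with a median of 43.0% (10.6% over those genes), and within KO it ran from 1.86% to 24.2% with a median of 3.26% (4.89%).

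Of 23 other immediate early genes, 22 were above the mean of the other WT samples in WT replicate 3 and 12 were more than 2 times that mean. Over the 10125 genes whose mean reached 5 CPM in a genotype, the median ratio of WT replicate 3 to that mean was 0.999. It was over 2 in 2.97% of them. Not all of the 23 reached 5 CPM. Klf4 was at 8.18, 5.97 and 63.5 CPM in WT and 6.79, 5.97 and 7.83 CPM in KO, and Dusp1, a MAP kinase phosphatase, was at 234, 228 and 692 CPM in WT and 210, 210 and 220 CPM in KO. Both were high in that sample alone, as Fos was. Gadd45b, a stress-induced regulator of MAP kinase signals, was at 37.9, 38.0 and 187 CPM in WT and 116, 114 and 115 CPM in KO, and the kinase gene Sik1 was at 51.2, 43.4 and 268 CPM in WT and 112, 114 and 110 CPM in KO. Both were higher in WT replicate 3 and in all KO samples than in WT replicates 1 and 2, as Jun was. These 4 genes were picked after their values were seen, and none of them was called with all samples. Without WT replicate 3 Gadd45b and Sik1 were called higher (1.59 and 1.24).

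**Figure D4:**
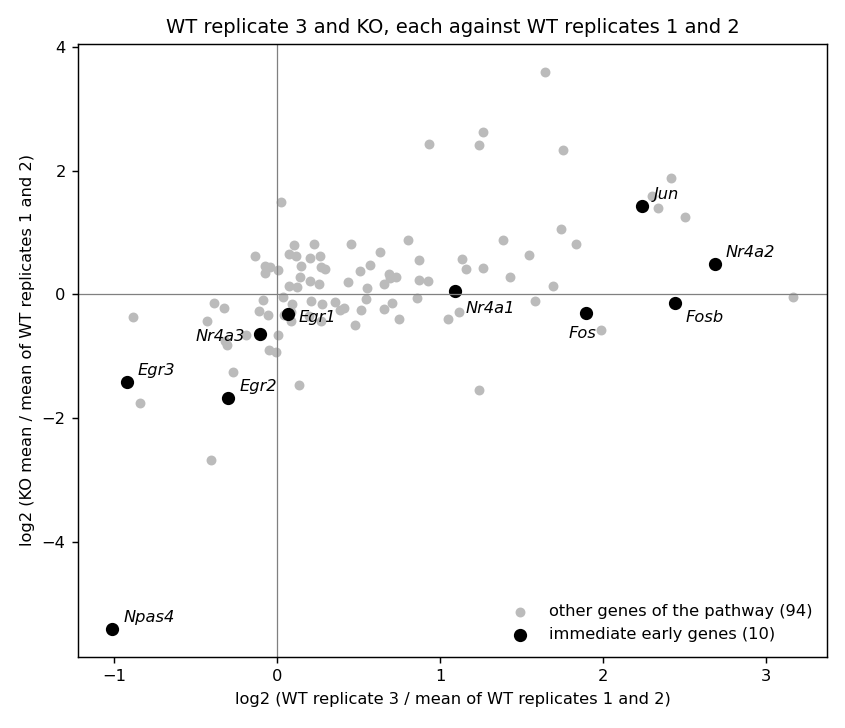
Log2 ratio of WT replicate 3 (horizontal axis) and of the KO mean (vertical axis) to the mean of WT replicates 1 and 2, for the 10 immediate early genes (black, named) and 94 other listed genes with at least 1 CPM in that mean (grey). The grey genes, labelled as other genes of the pathway, include heat shock genes. Both axes share a denominator. Npas4, Egr3 and Egr2 lie low on both axes, Fos, Fosb and Nr4a2 lie far right near 0 on the vertical axis, and Jun lies high on both.

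By the test over all genes, 1 of the 23 other immediate early genes rose and 3 fell (median log2 fold change -0.25), counts not far from the 11.9% and 12.5% of all genes. Ier3, a stress and survival gene, rose with a log2 fold change of 2.08 (SE 0.36, edgeR adjusted p = 0.00305), from a WT mean of 2.62 ± 1.45 to a KO mean of 11.1 ± 1.30 CPM (SD, n = 3 each). Zfp36l1, which encodes a protein that destabilizes AU-rich mRNAs, fell with a log2 fold change of -1.51 (SE 0.09, edgeR adjusted p = 3.84e-05), from 735 ± 51.3 to 257 ± 25.0 CPM. Ier5l fell (-2.08, SE 0.51), from 2.63 ± 1.42 to 0.618 ± 0.249 CPM. The antiproliferative gene Btg2 fell (-0.69, SE 0.20), a call that was lost without WT replicate 3 (-0.40). Without that replicate 6 of the 23 were called higher and 2 lower (13.6% and 13.2% of all genes), so the balance of directions in this list rested on that sample.

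Among 26 upstream regulators of immediate early genes, 2 rose and 5 fell (median log2 fold change -0.15), against 11.9% and 12.5% of all genes. The calls were 4 higher and 4 lower without WT replicate 3, against 13.6% and 13.2%. Hdac7, a repressor of MEF2 targets, was at 592, 511 and 457 CPM in WT and 221, 236 and 233 CPM in KO. It fell with a log2 fold change of -1.18 (SE 0.10, edgeR adjusted p = 0.000154). Nab2, a corepressor of EGR proteins and itself an EGR target, was at 98.0, 99.9 and 98.5 CPM in WT and 52.7, 49.6 and 52.7 CPM in KO. It fell (-0.94, SE 0.06, edgeR adjusted p = 5.54e-05) while Nab1, the other corepressor of this family, rose (0.76, SE 0.08) from 74.7 ± 6.72 to 127 ± 3.65 CPM. The WT samples of Nab2 lay within a few percent of each other, replicate 3 included. The SRF partner Elk3 fell (-0.72, SE 0.10), as did Elk1 (-0.67, SE 0.16) and the CREB coactivator gene Crtc1 (-0.59, SE 0.08), and Nfatc3, a calcium-regulated factor of the NFAT family, rose (0.63, SE 0.07). The call of Elk1 was lost without WT replicate 3 (-0.50), and that of Crtc1, just past 1.5-fold, without WT replicate 1 (-0.56), WT replicate 2 (-0.56), KO replicate 1 (-0.58) or KO replicate 3 (-0.58).

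Of 20 genes induced by the TCR, 1 rose and 4 fell (median log2 fold change -0.03), against 11.9% and 12.5% of all genes. This balance turned over without WT replicate 3, when 6 were called higher and 2 lower (median 0.19), against 13.6% and 13.2%. Bhlhe40, a basic helix-loop-helix repressor, rose with a log2 fold change of 2.05 (SE 0.25, edgeR adjusted p = 0.000653), with means of 131 ± 52.8 CPM over WT and 542 ± 14.2 CPM over KO samples. Cd5, an inhibitory receptor whose level follows TCR signal strength, was at 641, 657 and 627 CPM in WT and 347, 344 and 356 CPM in KO and fell (-0.88, SE 0.06, edgeR adjusted p = 5.88e-05). Spry1, a feedback inhibitor of MAP kinase signalling, was at 66.3, 67.3 and 37.2 CPM in WT and 18.6, 19.5 and 21.2 CPM in KO. Like Egr3 it was lowest within WT in replicate 3, and it fell in KO (-1.52, SE 0.22). Rgs2 also fell (-1.57, SE 0.51), but WT replicate 3 was at 161 CPM against 39.6 and 41.6 in the other WT samples, and the call was lost without it (-0.58) and without KO replicate 1 (-1.59), KO replicate 2 (-1.55) or KO replicate 3 (-1.56). Nfkbid, an atypical IκB gene, fell (-0.83, SE 0.27), a call lost without WT replicate 3 (-0.40), KO replicate 1 (-0.83) or KO replicate 2 (-0.79).

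Genes linked to Egr2 and Egr3 in T cell anergy went both ways, with 3 of 12 higher and 4 lower (median log2 fold change 0.12), against 11.9% and 12.5% of all genes. With WT replicate 3 left out, 4 were called higher and 3 lower, against 13.6% and 13.2%. Nrn1 fell with a log2 fold change of -2.56 (SE 0.16, edgeR adjusted p = 4.23e-05). Its mean over WT samples was 30.0 ± 4.80 CPM, that over KO samples was 5.10 ± 0.645 CPM, and all WT samples were above all KO samples. The diacylglycerol kinase genes Dgka (-0.67, SE 0.06) and Dgkz (-0.66, SE 0.10), whose products limit TCR signalling, fell too, as did Tob1 (-0.77, SE 0.29). The call of Dgkz was lost without WT replicate 1 (-0.57), and that of Tob1 without WT replicate 3 (-0.30), KO replicate 1 (-0.70), KO replicate 2 (-0.77) or KO replicate 3 (-0.83). Cdkn1a, which encodes the cell cycle inhibitor p21, was at 5.51, 4.08 and 15.0 CPM in WT and 61.0, 54.6 and 58.3 CPM in KO and rose (2.83, SE 0.43, edgeR adjusted p = 0.00182), or 3.58 without WT replicate 3. Sema7a (1.88, SE 0.34) and the ubiquitin ligase gene Rnf128 (1.49, SE 0.25) rose as well.

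Heat shock genes, which can be induced while tissue is handled, were measured alongside. Of 11 such genes 3 rose, Hsp90aa1 (0.73, SE 0.09), Hspd1 (0.66, SE 0.08) and the endoplasmic reticulum chaperone gene Hspa5 (0.65, SE 0.13), and 0 fell (median log2 fold change 0.39), against 11.9% and 12.5% of all genes. With all samples the rest were not called. Their log2 fold changes were 0.95 for Hspa1a (SE 1.20), 0.39 for Hspa1b (SE 0.67), 0.45 for Hsp90ab1 and 0.31 for Hspa8. For Hsph1 it was 0.04, for Dnajb1 0.001, for Dnaja1 -0.11 and for Hspe1 -0.19. In WT replicate 3 only Hspa1a and Hspa1b of the 11 were more than 2 times the mean of the other WT samples. That mean was under 1 CPM for both. For the heat shock genes not called with all samples, the log2 fold changes without WT replicate 3 are not given. Without WT replicate 3, 5 of the 11 were called higher and 0 lower, against 13.6% and 13.2%. The call of Hspa5 was lost without WT replicate 1 (0.57) or WT replicate 2 (0.57). The summed level of the 11 was 4980, 5048 and 5702 CPM in WT and 7251, 6827 and 6918 CPM in KO. It was thus highest in KO and, within WT, in replicate 3. Hspa8 and Hsp90ab1 were large parts of this sum, at means of 1672 and 1919 CPM over WT replicates 1 and 2. The sum thus says little of Hspa1a and Hspa1b. The part of heat shock genes in the levels of the immediate early genes was not tested.

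The mean of the 10 genes' standardized log2 CPM was 0.33, 0.10 and 1.24 in WT replicates 1 to 3 and -0.62, -0.48 and -0.56 in KO replicates 1 to 3. Over the 6 samples, the genes whose log2 CPM followed this mean most closely, of 10115 compared, were Foxp3 (Pearson r = 0.999), Hsd17b11 (0.998), Kdsr (0.997), Plekha7 (0.997) and Sun2 (0.996). These values describe 6 samples of 2 genotypes that share libraries, and they carry no test. The mean rests on genes chosen with their KO against WT values known, so close matches among genes lower in KO follow from that choice. It also joins genes of all 3 patterns, and Egr3 and Npas4 were lowest within WT in replicate 3. Foxp3, the lineage factor of Tregs, was at 738, 642 and 1190 CPM in WT and 460, 472 and 463 CPM in KO. It was thus high in WT replicate 3, as the mean of the 10 genes was, and its call as lower in KO (log2 fold change -0.88, SE 0.21) was lost without that replicate (-0.57), just under the 1.5-fold cutoff.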

How the data were processed

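RNA-Seq libraries of total RNA (TruSeq) from 3 WT and 3 KO samples were used, grouped by the genotype and replicate number in the labels. The methods name SOAPnuke for read filtering, HISAT2 for alignment to mm10 (1 alignment kept for each read) and StringTie for quantification. The authors deposited whole-number counts per gene without normalization, and no gene had fewer than 60 counts in all. The gene annotation, the use of strand and the making of the whole numbers are not given in the sources used here.

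Counts were analyzed with R 4.3.3 and edgeR 4.0.16 (filterByExpr with a minimum count of 10, TMM, quasi-likelihood F-test, two-sided, Benjamini-Hochberg over all 13594 genes tested, no covariate). CPM used TMM-scaled totals, and SE was the log2 fold change divided by the square root of F. Alternatives were DESeq2 1.42.0, other scalings and filters, other cutoffs, a replicate block and leaving out each sample. The procedure was tested on simulated counts.

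The 10 genes and the lists were chosen with earlier results of these data known. Besides them, the named genes were Zfp335, the paralogs of the 10, the other EGR corepressor genes, up to 4 called genes per list with the largest log2 fold change and a mean reaching 1 CPM, the 5 closest patterns among genes whose mean reached 5 CPM, and the remaining genes of short counts of calls, which, with Klf4, Dusp1, Gadd45b and Sik1, were picked after their values were seen. Same-numbered WT and KO samples did not deviate together (r of 0.033, 0.041 and -0.011), so the numbers were not used as pairs.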

Additional observations from a re-analysis of the deposited data

How the results depend on the processing

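Between 2867 and 3667 genes were called when a sample was left out, against 3318 with all 6. Without a fold cutoff 5244 were called at an adjusted p under 0.05, and glmTreat against 1.5-fold called 1686. For the 10 immediate early genes, glmTreat called 3 lower, leaving out 1 sample gave 3 to 6 lower and 0 to 1 higher, and their median log2 fold change, -1.09 with all samples, ran from -1.27 to -0.32, the last without WT replicate 3. Of the other listed genes, heat shock genes included and cell markers left aside, 28 were called. There were 44 without a fold cutoff, 14 by glmTreat, and 24 to 41 with a sample left out. Under DESeq2, other scalings and other filters the 10 genes kept their directions; the call of Fos was lost under DESeq2 (-1.21) and Fosb was called with library totals alone (-1.46). The cause of these changes was not tested.

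With the replicate block 3190 genes were called, 4 of the 10 were called lower with Fos lost (-0.92), and the sign of Fosl1 (0.12) and Sik1 (0.45) turned. The numbers were not taken to pair samples, and WT replicate 1 correlated more with KO replicate 3 (r = 0.037) than with its own number (0.033). Such small correlations cannot exclude a pairing. With a sample left out, the log2 fold change ranged from -0.61 to 0.051 for Nr4a1, -1.44 to 0.48 for Nr4a2, -0.10 to 1.42 for Jun, -0.37 to 0.71 for Fosl1, -0.95 to 0.14 for Junb and -0.52 to 1.24 for Sik1, all of them values that turned sign. Depth limits Npas4 in KO, which rested on 15 to 28 counts a sample.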
